A study of Arabidopsis thaliana with 30 samples.

Results

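The transcriptional response of wild-type Arabidopsis thaliana seedlings to a move from 12 to 27 °C was measured by RNA-seq. The libraries were selected by their labels, as the wild type in the heat and the cold condition of the heat shock experiment, which gave 6 of the 30 libraries of the series. All 6 came from the Col-0 accession, an inbred laboratory strain, grown on plates of MS medium at 12 °C under long days (16 h of light, 8 h of dark) and harvested as whole seedlings 12 days old. Seedlings on 3 plates had been placed at 27 °C for the last 4 h (heat), and seedlings on 3 other plates had stayed at 12 °C (cold). The other libraries of the experiment, from the bdr1,2,3 triple mutant under the same conditions, entered the estimate of the spread and the test of whether the mutant responded differently. The hour of the day at harvest is not given in the sources used here.

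Plants read warmth and cold through several routes. Heat shock factors bind heat shock elements in promoters and raise the genes of chaperones, proteins that keep others folded or pull them out of aggregates, whereas CBF factors bind CRT/DRE elements in the cold and raise COR genes, whose products protect membranes and proteins from freezing. Warm temperatures that do not damage the plant also act through the clock protein ELF3, phytochrome B and the bHLH factor PIF4, which drives elongation through auxin.

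The unit throughout is CPM, the raw counts of a gene scaled to the effective size of its library, and values of the 3 libraries of a group are given in the order of replicates 1, 2 and 3. Total counts ranged from 14315205 to 15284510 in the heat libraries and from 6823975 (replicate 2) to 16356103 in the cold libraries. Of 33602 genes in the count table, 19473 had enough counts for a test, and a gene was called higher or lower at a Benjamini-Hochberg adjusted p under 0.05 in edgeR's quasi-likelihood test. By this rule 57.8% of the genes tested were called, 29.3% higher and 28.5% lower in heat, with a median log2 fold change over all genes of 0.00. The scaling of library sizes (TMM) assumes that most genes do not change, so a shift shared by all genes could not be seen. More than 2-fold changes were called for 1375 genes higher (7.06%) and 1617 genes lower (8.3%). For 63.7% of the genes tested, the 3 heat libraries did not overlap the 3 cold libraries. The 3 libraries of a group are separate plates, so p-values measure the spread between plates of 1 experiment. The library kit marks the strand, but whether counting used it is not given in the sources used here. Values of genes that overlap another on the opposite strand are therefore uncertain. Among those named this includes MBF1C, Hop3, HSP17.4, HSP101, COR15B, FAD8, FKF1, CO, VIN3, SARD1, F3H, CP5, HTA9, SIP1;2, AGP21, WRKY33, GSTU2 and ARCK1.

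Markers of leaf mesophyll, the Rubisco small subunits, Rubisco activase and carbonic anhydrase, summed to 19220 to 23411 CPM in the heat and 21108 to 22167 CPM in the cold libraries, and all 6 markers were above the floor of 3 counts. Root hair markers summed to 4.08 to 6.48 CPM in heat and 3.94 to 4.33 CPM in cold, seed storage genes to 1.87 to 5.38 CPM in heat and 2.24 to 7.39 CPM in cold, and floral organ genes to 1.09 to 2.63 CPM in heat and 0.88 to 0.978 CPM in cold, with AG, AP1 and AP3 at or under the floor in every library. The markers of green leaf tissue were thus present in every library. In such bulk samples, fewer cells of a type and less RNA per cell cannot be told apart.

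Heat replicate 1 stood apart from the other heat libraries. The chi-square per degree of freedom between libraries, which is 1 for pure counting noise, was 2.05 for heat replicates 2 and 3, but 10.4 and 15 for heat replicate 1 against them. Cold replicate 1 differed less, with 5.84 and 4.68 against cold replicates 2 and 3, which gave 2.68 between them. On the first principal component of the 500 most variable genes, which held 93.3% of their variance, the heat libraries lay at 40.37, 29.67 and 28.19 and the cold libraries at -35.74, -31.08 and -31.42. Among genes called more than 2-fold higher, the CPM in heat replicate 1 was a median of 1.17 times the mean of heat replicates 2 and 3, and among those called more than 2-fold lower it was 0.845 times that mean. The ratio differed between groups of genes (the plot of heat replicate 1 against the other heat libraries), so counts for most groups below are also given without this library. Cold libraries mattered as much for the calls. Without heat replicate 1, 88.3% of the genes called higher and 88.6% of those called lower kept their call. These shares were 85.6% and 86.2% without cold replicate 1, and 85% and 88.3% without cold replicate 3.

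**Figure D1:**
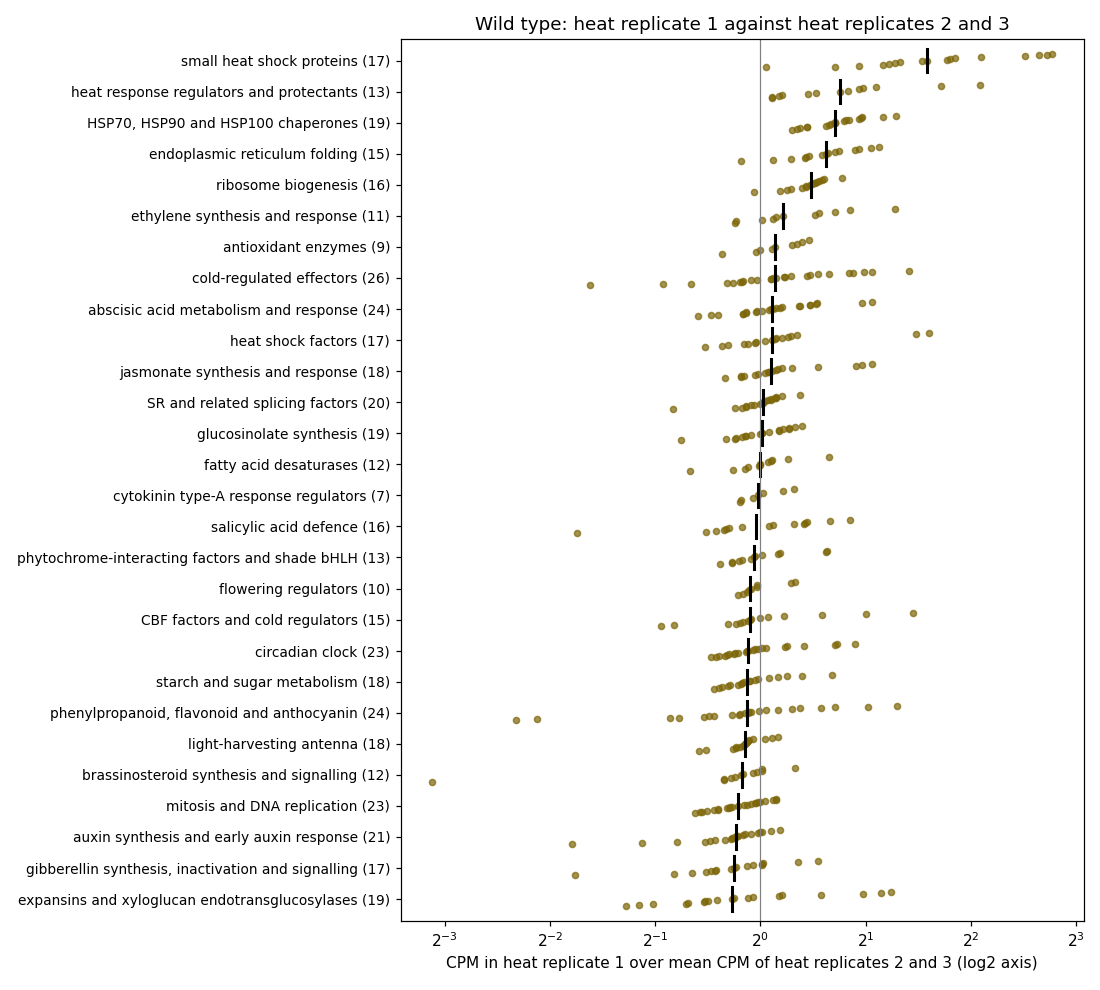
Each dot is a tested gene of the list named at the left, placed by its CPM in heat replicate 1 over the mean CPM of heat replicates 2 and 3 on a log2 axis, and the black bar is the list's median. The small heat shock proteins had a median ratio of 2.99 and the HSP70, HSP90 and HSP100 chaperones one of 1.63.

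Heat shock factors did not move as a family. Of 21 genes for them, 17 could be tested, of which 5 were called higher (29.4%) and 5 lower (29.4%). Over all tested genes these shares were 29.3% and 28.5%. The median log2 fold change of the family was -0.16, and the counts were 5 and 6 without heat replicate 1. HSFA2, an amplifier of the response that is itself a target of other heat shock factors, had 36.1, 12.6 and 11.1 CPM in heat, against 0.669, 0.419 and 0.645 CPM in cold (log2 fold change 5.01, SE 0.78, adjusted p = 0.00048, edgeR). HSFA3, a factor under the control of DREB2A, had 22.3, 19.4 and 18 CPM in heat, against 3.64, 4.75 and 6.16 CPM in cold (2.00). The lowest heat library of both genes lay above their highest cold library.

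The B-class factors HSFB2A and AT-HSFB2B, which lack the activation domain of the A class and act as repressors, rose by log2 fold changes of 2.27 and 2.33. HSFB2A had 28.8, 25.5 and 24.6 CPM in heat, against 6.61, 3.35 and 5.57 CPM in cold. Of the 4 A1 factors, which start the response from protein already present, none was called higher by edgeR, none by DESeq2 and none at an unadjusted p under 0.05. HSFA1E fell to 3.32, 3.5 and 3.34 CPM in heat, against 8.92, 7.13 and 7.27 CPM in cold (-1.20), HSF3 (HSFA1B) fell by 0.44 on the log2 scale, and HSF1 (HSFA1A) and HSFA1D had log2 fold changes of 0.18 and 0.29 with adjusted p-values of 0.346 and 0.0914 (HSF1 was called without cold replicate 3, at 0.0412). HSFA7A and HSFA8 were also called lower, at -0.57 and -0.99. HSFB1 (annotated as HSF4) is listed at 0 counts in all 6 libraries, which says nothing of its level.

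Proteins that regulate or carry out protection from heat moved as a group. Of 13 genes on this list 11 were called higher and none lower, with a median log2 fold change of 1.57 (10 of 13 and a median of 1.25 without heat replicate 1), and the 2 others, DREB2B and Hop1, had log2 fold changes of 0.10 each. Summed over the list, the heat libraries held 786 to 1534 CPM and the cold libraries 267 to 273 CPM. MBF1C, a coactivator needed for thermotolerance, had 217, 132 and 113 CPM in heat, against 5.13, 3.63 and 6.04 CPM in cold (4.89, SE 0.41). Hop3, a cochaperone that links HSP70 to HSP90, had 227, 125 and 105 CPM in heat, against 1.19, 1.4 and 2.11 CPM in cold (6.53, SE 0.47). Both were above their cold level in every heat library and highest in heat replicate 1. No gene of this list, of the small heat shock proteins or of the list for folding in the endoplasmic reticulum was lower by edgeR, by DESeq2 or at an unadjusted p under 0.05.

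The Hop genes differed among themselves. Hop2 had 98.1, 68.1 and 68.1 CPM in heat, against 51.4, 52 and 49.9 CPM in cold (0.61), and Hop1 had 51.1, 48.4 and 46 CPM in heat, against 44.4, 45.4 and 45.9 CPM in cold (0.10, adjusted p = 0.238). The peptidyl-prolyl isomerases ROF1 and AT5G48570 (ROF2), which bind HSP90, rose by 1.57 and 4.93 on the log2 scale. HSA32, which prolongs acquired thermotolerance, had 136, 70.2 and 57.2 CPM in heat, against 5.2, 4.61 and 4.22 CPM in cold (4.23). GolS1, which makes galactinol, the donor for raffinose sugars, had 65.6, 40.4 and 37.2 CPM in heat, against 3.12, 4.05 and 5.04 CPM in cold (3.52). APX2, a cytosolic ascorbate peroxidase, had 7.54, 2.33 and 1.23 CPM in heat and at most 3 counts in any cold library. Its mean in heat, which replicate 1 raised, was at least 8.83-fold higher than in cold. HSBP, a small protein that binds heat shock factors and damps the response, rose too, at 0.58.

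Heat shock elements are inverted repeats of GAA, and their positions are shown here because these genes carry them at different distances from the start and did not all move the same way. A run of 3 units, GAANNTTCNNGAA or TTCNNGAANNTTC, was searched on both strands of the window from 250 bases before to 50 after each gene start in RefSeq's TAIR10.1 promoters. It was found in 2.19% of the promoters of genes more than 2-fold higher (30 of 1367), 0.685% of those more than 2-fold lower (11 of 1607), 0.589% of all tested genes and 0.472% of all 37897 promoters. In the 250 bases before the start alone, the share among genes more than 2-fold higher was 1.24%, against 0.449% of all tested genes. The 2-unit form GAANNTTC or TTCNNGAA, which every 3-unit element contains, was found in 22.4%, 20.7%, 18.8% and 19.4% of the same sets, in 9 of the 17 small heat shock protein promoters and in 7 of the 13 promoters of the heat regulators (7 and 5 in the 250 bases before the start alone). In the 250 bases before the start alone, the 2-unit form was found in 17.2% of genes more than 2-fold higher and 17.1% of those more than 2-fold lower. A match is a description of the letters and not a binding site. The 60-base stretches below read 5′ to 3′ on the strand of the gene, with the 3-unit element in capitals. They are from AT1G53540 (chr1:19980222-19980281, plus strand), HSP17.4 (chr3:16984868-16984927, minus), HSFA2 (chr2:11135512-11135571, plus), GolS1 (chr2:19370543-19370602, minus) and DREB2A (chr5:1602017-1602076, plus), all called higher, and from HSFA7A (chr3:19264975-19265034, plus) and ERF2 (chr5:19172957-19173016, minus), both called lower.
AT1G53540: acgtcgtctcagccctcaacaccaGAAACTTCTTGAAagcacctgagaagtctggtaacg
HSP17.4: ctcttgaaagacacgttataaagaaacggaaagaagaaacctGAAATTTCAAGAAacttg
HSFA2: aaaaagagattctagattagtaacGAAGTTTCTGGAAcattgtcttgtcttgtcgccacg
GolS1: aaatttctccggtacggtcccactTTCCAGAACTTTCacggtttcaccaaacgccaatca
DREB2A: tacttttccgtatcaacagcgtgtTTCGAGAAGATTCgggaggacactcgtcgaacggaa
HSFA7A: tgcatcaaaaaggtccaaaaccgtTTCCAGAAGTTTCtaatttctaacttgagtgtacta
ERF2: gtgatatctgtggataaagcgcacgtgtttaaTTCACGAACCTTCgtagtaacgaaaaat

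The element nearest the annotated start lay 53 bases upstream of it in AT1G53540, 18 in HSP17.4, 88 in HSFA2 and 100 in GolS1. It lay 164 bases upstream in DREB2A, 142 in HSFA7A and 28 in ERF2. HSP17.4 and HSFA7A each held 2 such elements in the 250 bases before the start. DREB2A, a factor shared by drought and heat responses, had 47.5, 39.8 and 42.9 CPM in heat, against 18, 14.1 and 19.1 CPM in cold (1.32, SE 0.16). HSFA7A, whose product is itself a heat shock factor, had 14.2, 18.3 and 16.7 CPM in heat, against 26, 19.8 and 25.7 CPM in cold (-0.57, SE 0.13, adjusted p = 0.00142, edgeR). ERF2, an ethylene response factor, had 2.91, 1.17 and 1.23 CPM in heat, against 14.4, 11.2 and 11.7 CPM in cold (-2.83, SE 0.23). The heat and cold libraries of these 3 genes did not overlap, and the last 2 fell.

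Small heat shock proteins, which bind unfolding proteins before they aggregate, showed the largest rises in the wild type. Of 17 genes, all tested, 15 were called higher and none lower, with a median log2 fold change of 6.16, or 4.96 with the genes at the floor in cold set to their lower bound, and 14 and 4.60 without heat replicate 1. In all 17 the heat and cold libraries did not overlap. The list summed to 489 to 1528 CPM in heat and 68.7 to 78.3 CPM in cold, and the upper end of the heat range was replicate 1. AT1G53540, a cytosolic class I protein (chr1:19980299-19981199), had 131, 44.9 and 27.9 CPM in heat and no count in any cold library. Its mean over the heat libraries was at least 162-fold higher than in cold (adjusted p = 0.0214, edgeR). The mitochondrial HSP23.6-MITO had 78.5, 14.5 and 9.33 CPM in heat and none in cold (at least 81.4-fold, adjusted p = 0.017, edgeR). ATHSP22.0, of the endoplasmic reticulum, had 85.1, 16.8 and 10.3 CPM in heat against 0, 0.14 and 0 CPM in cold (at least 89.3-fold, adjusted p = 0.0236). These bounds are for the mean of the heat libraries, which replicate 1 raised, and replicates 2 and 3 lay below that mean. The call of ATHSP22.0 was lost without heat replicate 1 (adjusted p = 0.0503) or without cold replicate 1, 2 or 3 (0.08, 0.0948 and 0.0845), and those of AT1G53540 and HSP23.6-MITO in a fit of the 6 wild-type libraries alone (0.0607 and 0.126).

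The cytosolic HSP17.4 and HSP17.6A had a cold level above the floor of 3 counts, each through cold replicate 3 alone. HSP17.4 had 194, 73.5 and 59.8 CPM in heat, against 0.0743, 0.279 and 0.469 CPM in cold (8.51, SE 1.1), and HSP17.6A had 95, 36.3 and 27.1 CPM in heat, against 0, 0.14 and 0.235 CPM in cold (8.54, SE 1.2). HSP17.6II, a class II neighbour of HSP17.6A, had 35.3, 7.97 and 4.36 CPM in heat and at most 1 count in a cold library (mean at least 37.9-fold higher). AT1G52560 had 11.7, 6.15 and 4.22 CPM in heat and at most 3 counts in cold (mean at least 4.13 higher on the log2 scale). HSP18.2 had 71.8, 12.1 and 8.85 CPM in heat, against 0.297, 0.279 and 0.587 CPM in cold (6.16, SE 1.7). In these genes heat replicate 1 was above both other heat libraries. HSP17.6II was not called without cold replicate 3 (adjusted p = 0.0516, edgeR), nor HSP18.2 without cold replicate 1 or 3 (0.0533 and 0.0522). Members with a basal level had smaller fold changes. AT2G19310 had 304, 196 and 175 CPM in heat, against 33.7, 29.9 and 34.6 CPM in cold (2.77).

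The 2 small heat shock protein genes without a call differed in kind. HSP21, of the chloroplast, had 29.8, 7.9 and 6.06 CPM in heat and no count in cold, which is at least 34.8-fold for the mean. However, its adjusted p was 0.0654 in edgeR's test and 6.01e-08 in DESeq2. AT4G21870 had 23, 22 and 23 CPM in heat, against 27.6, 24.6 and 27.2 CPM in cold (-0.22, adjusted p = 0.138, and 0.0415 in a fit of the 6 wild-type libraries alone).

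**Figure D2:**
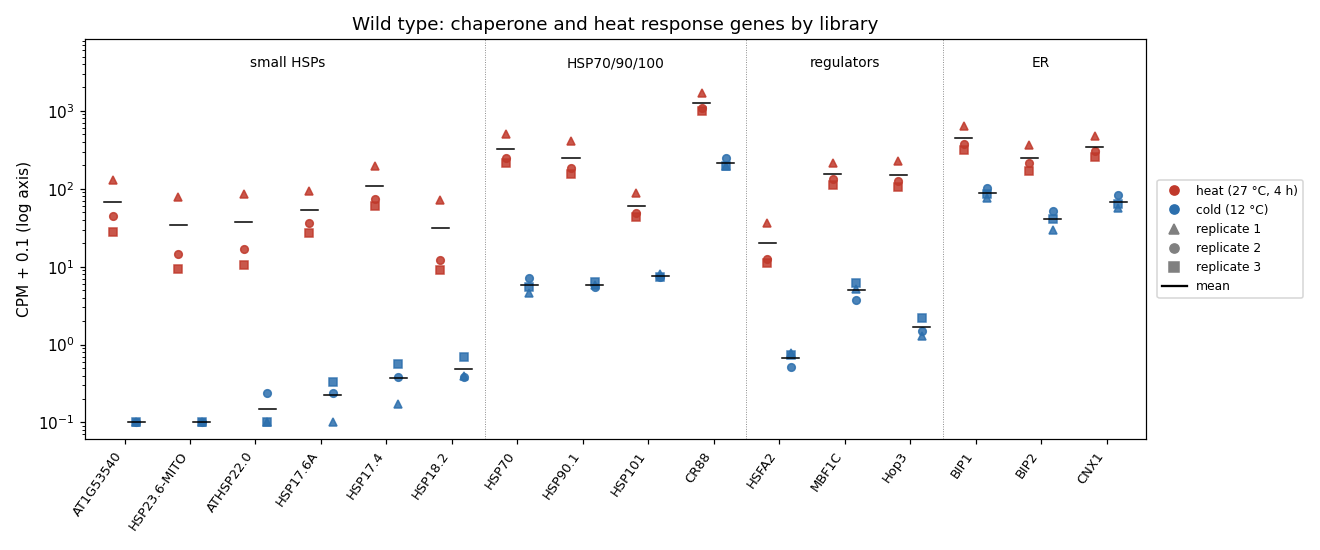
Each symbol is a library, at its CPM plus 0.1 on a log axis, in red for heat (left of each pair) and blue for cold, with triangle, circle and square for replicates 1, 2 and 3 and a bar for the mean. In AT1G53540 and HSP23.6-MITO every cold library is at 0 CPM, while BIP1 held 315 to 647 CPM in heat and 76.1 to 103 CPM in cold.

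The HSP70, HSP90 and HSP100 chaperones use ATP to fold, mature or disaggregate proteins. Of 20 genes 19 could be tested, of which 16 were called higher and 1 lower, with a median of 1.63 (16, 1 and 1.31 without heat replicate 1), and the list summed to 4508 to 7525 CPM in heat and 2114 to 2490 CPM in cold. Cytosolic HSP70 (chr3:3991117-3993886) had 513, 245 and 213 CPM in heat, against 4.46, 6.99 and 5.46 CPM in cold (5.89, SE 0.53). HSP90.1, the heat-inducible cytosolic HSP90, had 415, 184 and 155 CPM in heat, against 5.72, 5.31 and 6.22 CPM in cold (5.43, SE 0.54). HSP101, the disaggregase (chr1:27936508-27940369), had 89.3, 48.2 and 43.8 CPM in heat, against 8.03, 7.26 and 7.33 CPM in cold (3.00, SE 0.39).

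Chaperones of the organelles followed. CR88, the HSP90 of the chloroplast, had 1724, 1104 and 1000 CPM in heat, against 195, 247 and 198 CPM in cold (2.58, SE 0.23), and mitochondrial Hsp89.1 and HSP60 rose by 1.8 and 1.86 on the log2 scale. The constitutive HSC70-1 had 1831, 1379 and 1315 CPM in heat, against 726, 910 and 829 CPM in cold (0.88, SE 0.13). Among the HSP100 disaggregases the chloroplast member went the other way. CLPB3 had 97.2, 79.5 and 73.9 CPM in heat, against 139, 141 and 125 CPM in cold (-0.69, SE 0.098, adjusted p = 1.27e-05, edgeR), whereas the mitochondrial CLPB4 rose by 1.68 on the log2 scale. HSP81-2, HSP81-3 and Hsp81.4 (HSP90.2, HSP90.3 and HSP90.4) are near-identical and neighbours, so their values of 0.83, 0.95 and 0.07 are uncertain, because the treatment of reads that match several genes is not given in the sources used here. ERD2, an HSP70 gene, is listed at 0 in all 6 libraries.

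Genes for folding in the endoplasmic reticulum rose with the cytosolic chaperones. Of 15 tested 12 were called higher and none lower, with a median of 1.67 (12 and 1.4 without heat replicate 1), and the list summed to 2161 to 3723 CPM in heat and 747 to 965 CPM in cold. BIP1, an HSP70 of the endoplasmic reticulum, had 647, 379 and 315 CPM in heat, against 76.1, 103 and 85.6 CPM in cold (2.35, SE 0.29), and BIP2, nearly identical to it and therefore uncertain as a single gene, had 369, 213 and 170 CPM in heat, against 29.2, 52 and 41.3 CPM in cold (2.64, SE 0.36). CNX1, a calnexin that holds glycoproteins, had 474, 308 and 257 CPM in heat, against 56.8, 84.1 and 63.1 CPM in cold (2.36, SE 0.26). ATERDJ3A, a J-domain cochaperone, and SDF2 rose by 2.95 and 2.19 on the log2 scale. The heat and cold libraries of these 5 genes did not overlap.

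The 3 members without a call included BIP3, a BiP gene known to be induced by unfolded proteins, which had 1.25, 0.389 and 0.817 CPM in heat, against 1.19, 0.978 and 1.23 CPM in cold (-0.52, adjusted p = 0.366, edgeR). BZIP60, a transcription factor of the unfolded protein response, had 25.7, 20.1 and 22 CPM in heat, against 25.3, 20.5 and 23.1 CPM in cold (-0.04, adjusted p = 0.808), in a count that does not separate its spliced from its unspliced form. BZIP28, its membrane-bound counterpart, was called higher at 0.58. The G-box CACGTG was found in 9 of the 15 promoters of this list (60%), against 8.9% of all tested genes. In the 250 bases before the start alone it was found in 6 (40%), against 7.43%, and 9.29% of genes more than 2-fold higher. Those 6 included SDF2 but also BIP3 and BZIP60, which were not called, while BIP1, BIP2, CNX1 and ATERDJ3A had none there. The promoters of this list held the 2-unit heat shock element in 2 of the 15 with either window. Across all 238 tested genes whose product is annotated as a heat shock protein, a J-domain protein or a chaperone, the picture was weaker, with 106 called higher, 48 lower and a median of 0.20 (98, 44 and 0.15 without heat replicate 1).

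**Figure D3:**
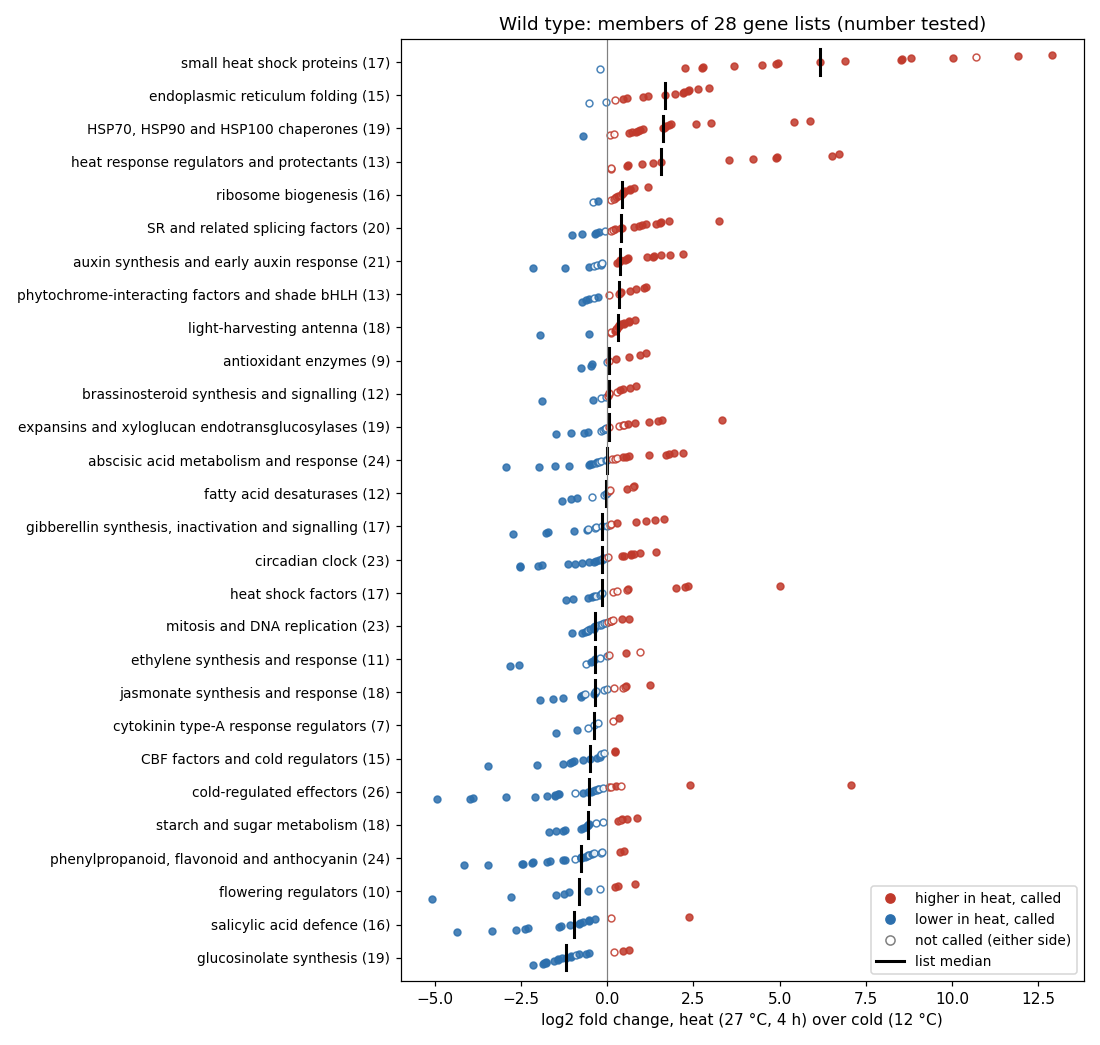
Each dot is a tested gene of the list named at the left, placed by its log2 fold change (heat minus cold), in red where called higher in heat, in blue where called lower and open where not called, and the black bar is the list's median. The medians run from 6.16 for the small heat shock proteins to -1.19 for glucosinolate synthesis, and the median over all tested genes is 0.00.

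Genes that cold raises were lower after 4 h at 27 °C, though not all of them. Of 26 cold-regulated effectors 16 were called lower and 3 higher, with a median of -0.52 (17, 2 and -0.58 without heat replicate 1). COR15A (chr2:17710441-17712330), whose product stabilizes chloroplast membranes during freezing, had 0.623, 0.453 and 0.34 CPM in heat, against 12.2, 5.73 and 4.58 CPM in cold (-3.98, SE 0.45). Its tandem copy COR15B had 1.38, 1.68 and 0.681 CPM in heat, against 62, 20.8 and 30.2 CPM in cold (-4.93, SE 0.49). The cold libraries of both genes spread more than their heat libraries did, with cold replicate 1 the highest, and the groups did not overlap.

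LTI30, a dehydrin, had 12.3, 9.59 and 11.3 CPM in heat, against 105, 71.9 and 73.7 CPM in cold (-2.92, SE 0.32), and LTI78 (RD29A), a standard marker of cold, drought and salt, had 33, 20.9 and 24.2 CPM in heat, against 140, 98.6 and 95.7 CPM in cold (-2.10, SE 0.20). The dehydrin COR47 changed less, with 428, 318 and 312 CPM in heat, against 498, 418 and 487 CPM in cold (-0.41, adjusted p = 0.00814, edgeR), and its groups overlapped. Its relative ERD10 had a log2 fold change of -0.23 (adjusted p = 0.456, and 0.015 without heat replicate 1). GolS3, the galactinol synthase of the cold response, had at most 3 counts in any heat library, against 3.12, 0.559 and 1.35 CPM in cold, and was at least 8.07-fold lower in heat, opposite to GolS1. COR413IM1, a protein of the chloroplast inner envelope, had 9.8, 26 and 34 CPM in heat, against 82.5, 39.5 and 75 CPM in cold (-1.52), and was not called without cold replicate 1 (adjusted p = 0.0508, edgeR) or in the fit of the 6 wild-type libraries alone (0.0667). The glycine-rich RNA-binding protein GRP7, a clock output, had 2961, 3301 and 3397 CPM in heat, against 3265, 3500 and 3681 CPM in cold (-0.11, adjusted p = 0.281).

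The 3 members called higher were not COR genes. LTP3 and LTP4, neighbouring lipid transfer protein genes, had 4.98, 2.14 and 2.65 CPM and 1.25, 1.43 and 0.817 CPM in heat, against 0.52, 0.699 and 0.645 CPM and no counts in cold, so LTP3 rose by 2.39 on the log2 scale and LTP4 was at least 2.77-fold higher. The third was CSP3, a cold shock domain protein, at 0.25 (adjusted p = 0.0406, edgeR), with overlapping groups and no call by DESeq2 (0.0727) or without cold replicate 1 (0.0957), cold replicate 3 (0.22), heat replicate 1 (0.0925) or heat replicate 2 (0.105). Among all 51 tested genes annotated as LEA proteins or dehydrins 10 were called higher (19.6%) and 15 lower (29.4%), with a median of -0.12. Over all tested genes these shares were 29.3% and 28.5%, so the family was not called lower more often than other genes. Without heat replicate 1 the counts were 11 and 15 of 59. The abundant members carried the sum to 1523 to 1578 CPM in heat, against 2844 to 3135 CPM in cold. The dehydrin AT1G54410 alone had 589, 688 and 744 CPM in heat, against 1981, 1801 and 1879 CPM in cold (-1.49, SE 0.10).

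The CBF genes themselves had few counts in both groups. Of 19 genes for CBF factors and their regulators 15 could be tested, of which 10 were called lower and 2 higher, with a median of -0.50 (9, 1 and -0.66 without heat replicate 1). DREB1A (CBF3) had 0.138, 0.259 and 0.272 CPM in heat, against 3.49, 1.82 and 2.11 CPM in cold (-3.45, SE 0.46), and CBF1 had 0.208, 0.259 and 0.476 CPM in heat, against 1.86, 1.12 and 0.939 CPM in cold (-2.03, SE 0.50). CBF2, which lies in the same tandem cluster, had 1.73, 0.583 and 0.681 CPM in heat, against 1.26, 0.978 and 0.939 CPM in cold (-0.10, adjusted p = 0.85), so its heat libraries spanned its cold libraries. The CBF genes are close copies, and reads could have been shared among them.

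ICE1 and SCRM2 (ICE2), the bHLH activators of CBF genes, were both called lower, at -0.21 and -0.30. RAV1 and the zinc finger gene CZF1, which are early cold-responsive factors outside the CBF route, fell to 46.6, 55.5 and 59.9 CPM and to 20.4, 22.4 and 24.3 CPM in heat, against 132, 132 and 129 CPM and 50.2, 44.3 and 48.3 CPM in cold (-1.28 and -1.09). SR1 (CAMTA3), a calmodulin-binding activator of CBF genes, was lower at -0.69 and its relative EICBP.B (CAMTA1) higher at 0.24. The other gene called higher was HOS1, an E3 ligase that removes ICE1 (0.24). The call of HOS1 was lost without cold replicate 1, cold replicate 3 or heat replicate 1 (adjusted p = 0.0638, 0.187 and 0.0568, edgeR), and that of ICE1 without cold replicate 1, heat replicate 1 or heat replicate 3 (0.145, 0.102 and 0.0535).

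The CRT/DRE core, ACCGAC or GCCGAC, is the letter string that CBF proteins bind. It was found on either strand in 7 of the 26 promoters of cold-regulated effectors (26.9%), against 9.79% of all tested genes, 9.36% of those more than 2-fold higher and 8.65% of those more than 2-fold lower, and in the 250 bases before the start alone again in 7, against 7.93% of all tested genes. The stretches below, with the core in capitals (as GTCGGC where it lies on the other strand), are shown for genes that fell. Each holds the core nearest the start, and these lie at differing distances from it. The 250 bases before the start held 2 cores in COR15A, 3 in LTI78, 3 in LTI30 and 1 in GolS3. The stretches are from COR15A (chr2:17712378-17712437, minus strand, 80 bases upstream), LTI78 (chr5:21240656-21240715, plus, 34), LTI30 (chr3:18940583-18940642, plus, 9) and GolS3 (chr1:3019396-3019455, plus, 216).
COR15A: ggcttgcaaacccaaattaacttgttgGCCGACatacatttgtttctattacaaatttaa
LTI78: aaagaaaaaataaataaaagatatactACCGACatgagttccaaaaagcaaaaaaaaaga
LTI30: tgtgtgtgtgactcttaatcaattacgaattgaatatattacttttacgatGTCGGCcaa
GolS3: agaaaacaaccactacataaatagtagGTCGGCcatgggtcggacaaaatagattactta

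Starch and sugar genes were lower on balance. Of 18 tested 11 were called lower and 4 higher, with a median of -0.56 (11 and 3 without heat replicate 1), and the list summed to 2809 to 3216 CPM in heat and 4747 to 5174 CPM in cold. The genes that fell covered breakdown and synthesis of starch alike. The cytosolic glucan phosphorylase PHS2 had 176, 222 and 241 CPM in heat, against 745, 669 and 664 CPM in cold (-1.70, SE 0.10), and DPE2, which handles the maltose that leaves the chloroplast, had 145, 167 and 188 CPM in heat, against 414, 373 and 372 CPM in cold (-1.21, SE 0.10). APL1, the large subunit of ADP-glucose pyrophosphorylase, the first step of synthesis, had 197, 223 and 233 CPM in heat, against 648, 589 and 597 CPM in cold (-1.49, SE 0.084), and the granule-bound synthase GBSS1 fell by 1.28 on the log2 scale. SEX1, the glucan water dikinase, had 569, 733 and 815 CPM in heat, against 1204, 1140 and 1224 CPM in cold (-0.75). In each of these heat replicate 1 was the lowest heat library. BAM1, a beta-amylase linked to stress and guard cells, rose instead (0.58), as did the sucrose exporters SWEET11 and SWEET12 (0.31 and 0.43) and GolS2 (0.86). The call of GolS2 was lost without cold replicate 2, cold replicate 3, heat replicate 1 or heat replicate 3 (adjusted p = 0.0993, 0.117, 0.109 and 0.0594, edgeR), and that of SWEET12 without cold replicate 2 or heat replicate 3 (0.0627 and 0.0681).

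Fatty acid desaturases, which set membrane fluidity, had few calls in either direction. Of 12 tested 2 were called higher (16.7%) and 3 lower (25%), against 29.3% and 28.5% of all genes, with a median of -0.03 and the same counts without heat replicate 1. FAD8, a chloroplast omega-3 desaturase known for its cold-dependent level, had 35.5, 35.5 and 35.8 CPM in heat, against 90.9, 88.3 and 87.5 CPM in cold (-1.32, SE 0.085), while its paralogue FAD7 had 336, 308 and 330 CPM in heat, against 323, 307 and 309 CPM in cold (0.05, adjusted p = 0.606, edgeR). FAD3, the omega-3 desaturase of the endoplasmic reticulum, had 28.4, 31.4 and 30.4 CPM in heat, against 60.7, 67.5 and 59.5 CPM in cold (-1.05), and ADS2 fell by 0.87 on the log2 scale. FAD2, which acts one step before FAD3, had 387, 455 and 474 CPM in heat, against 255, 310 and 314 CPM in cold (0.58), and FAD5 of the chloroplast rose as well (0.77). The heat and cold libraries of these genes other than FAD7 did not overlap.

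Clock genes were called lower more often than all tested genes, and higher about as often. Of 23 tested 11 were called lower (47.8%) and 7 higher (30.4%), against 28.5% and 29.3% of all tested genes. The median of the list was -0.15, and the counts were 10 and 7 without heat replicate 1. ELF4, PRR5, FKF1 and GI, genes known to peak in the afternoon or evening, were among those that fell. ELF4, part of the evening complex, had 14, 16.9 and 20.1 CPM in heat, against 118, 84.1 and 93.9 CPM in cold (-2.54, SE 0.14), and the pseudo-response regulator PRR5 (chr5:8356204-8358546) had 66, 84.4 and 98.5 CPM in heat, against 362, 323 and 313 CPM in cold (-2.0, SE 0.13). The photoreceptor F-box gene FKF1 had 41.1, 48.4 and 53.8 CPM in heat, against 186, 168 and 173 CPM in cold (-1.88, SE 0.10), and GI fell by 1.13 on the log2 scale.

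The morning loop differed within close relatives. LHY had 1.87, 0.713 and 1.29 CPM in heat, against 7.58, 9.5 and 5.98 CPM in cold (-2.53, SE 0.28), whereas CCA1 had 26.6, 19.7 and 20.5 CPM in heat, against 25.1, 24.3 and 19.5 CPM in cold (-0.03, adjusted p = 0.895, edgeR). The activators LCL1 (RVE4), with 200, 211 and 208 CPM in heat against 112, 97.7 and 109 CPM in cold (0.95), and AT5G64170 (LNK1) and AT3G54500 (LNK2), at 0.70 and 0.79, were higher, as was PRR9 at 1.43. The temperature sensor ELF3 and LUX (annotated as PCL1), which complete the evening complex with ELF4, had log2 fold changes of 0.01 and -0.12 with adjusted p-values of 0.953 and 0.156. LUX's paralogue BOA rose (0.70).

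The evening element AAAATATCT, found in promoters of clock output genes, was present on either strand in 6.1% of promoters of genes more than 2-fold lower (98), 1.9% of those more than 2-fold higher (26) and 3.06% of all tested genes. In the 250 bases before the start alone, the share of genes more than 2-fold lower was 4.79%. This cannot be set against the 3.06%, which is for the longer window. It was found in 6 of the 23 clock promoters and in 6 of the 26 promoters of cold-regulated effectors (5 and 4 in the 250 bases before the start alone). The stretches below, with the element in capitals (as AGATATTTT where it lies on the other strand), are from PRR5 (chr5:8358700-8358759, minus strand), FKF1 (chr1:25508427-25508486, plus) and COR27 (chr5:17199911-17199970, minus), all called lower, and from BOA (chr5:24003819-24003878, plus), called higher. The copy nearest the start was 187 bases upstream in PRR5, 186 in FKF1, 20 in COR27 and 43 in BOA.
PRR5: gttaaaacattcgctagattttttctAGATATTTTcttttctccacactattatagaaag
FKF1: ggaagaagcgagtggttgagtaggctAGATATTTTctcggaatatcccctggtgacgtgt
COR27: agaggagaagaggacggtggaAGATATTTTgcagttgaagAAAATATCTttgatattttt
BOA: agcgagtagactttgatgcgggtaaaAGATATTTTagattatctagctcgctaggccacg

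COR27 and AT4G33980 (COR28), cold-induced repressors of clock genes, link both groups. COR27, with 2 elements in the stretch shown, had 111, 114 and 113 CPM in heat, against 203, 168 and 173 CPM in cold (-0.69), and AT4G33980 had 36.5, 42 and 45.2 CPM in heat, against 163, 121 and 125 CPM in cold (-1.73, SE 0.12).

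Among 12 flowering regulators 10 could be tested, of which 6 were called lower and 3 higher, with a median of -0.83 and the same counts without heat replicate 1. CO, the long-day activator of FT, had at most 3 counts in any heat library, against 2.53, 2.1 and 2.87 CPM in cold, and was at least 12-fold lower in heat. VIN3, which builds up during weeks of cold and starts the silencing of FLC, had 0.415, 0.453 and 0.476 CPM in heat, against 4.09, 2.65 and 2.64 CPM in cold (-2.79, SE 0.40), while FLC itself had 20.1, 21.8 and 24.8 CPM in heat, against 27.3, 24.3 and 25.4 CPM in cold (-0.21, adjusted p = 0.0543, edgeR, and 0.0464 without cold replicate 2 and 0.0139 without heat replicate 3). AGL20 (SOC1), a floral integrator, had 29.8, 24.9 and 23.8 CPM in heat, against 76, 70.1 and 73.1 CPM in cold (-1.49, SE 0.088). MAF1 (FLM), a floral repressor whose transcripts are spliced according to temperature, had 30.9, 32.9 and 30.4 CPM in heat, against 75.9, 59.4 and 66.6 CPM in cold (-1.11), and MAF3 fell by 1.25 on the log2 scale, while AGL31 (MAF2), MAF5 and SVP rose by 0.23, 0.80 and 0.32 (AGL31 was not called without heat replicate 3, at 0.077). These counts do not separate isoforms. FT had too few counts for a test (at most 0.204 CPM in a heat library and 0.743 CPM in a cold library).

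**Figure D4:**
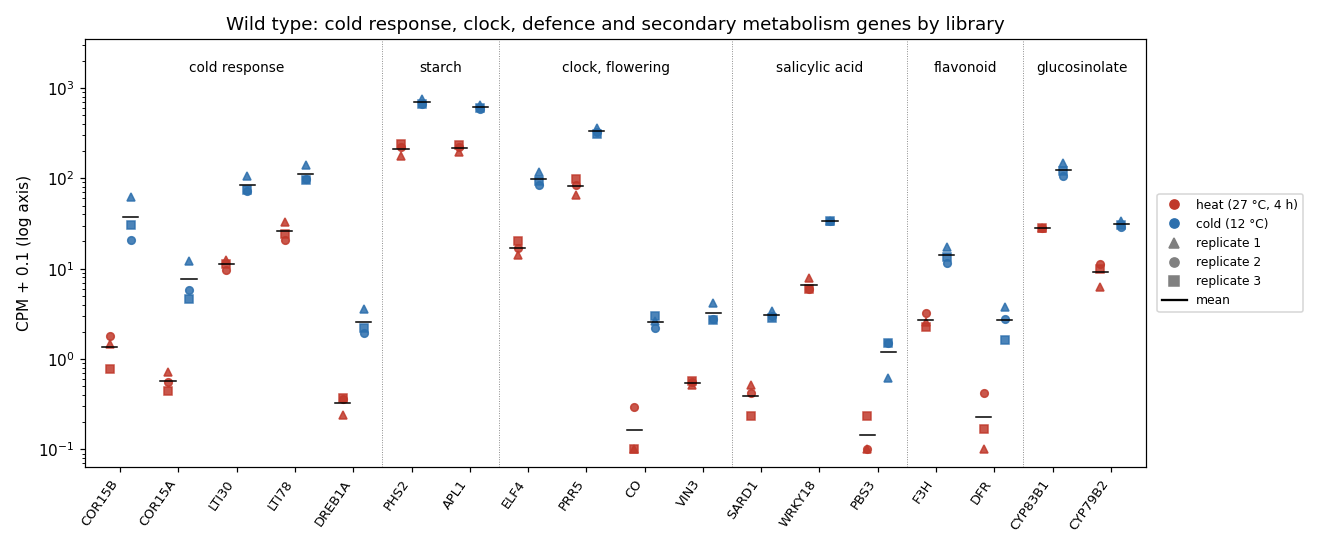
Each symbol is a library, at its CPM plus an offset given on the log axis, in red for heat (left of each pair) and blue for cold, with triangle, circle and square for replicates 1, 2 and 3 and a bar for the mean. In each gene drawn the heat libraries lie below the cold libraries, from PHS2 with 176 to 241 CPM in heat against 664 to 745 CPM in cold, to PBS3 with at most 0.136 CPM in heat against 0.52 to 1.41 CPM in cold.

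PIF4, the factor through which warmth promotes elongation (chr2:17886101-17889087), had 120, 136 and 141 CPM in heat, against 57.7, 68.9 and 64.5 CPM in cold (1.06, SE 0.11). PIL5 (PIF1), which acts in germination and greening, and PIL6 (PIF5) were also higher, at 1.13 and 0.85, while PIF7, a further thermal responder, had 54.5, 47.1 and 48.1 CPM in heat, against 77.2, 68.9 and 68.3 CPM in cold (-0.52). Of 14 genes on the list of PIF and shade-related factors 13 could be tested, with 5 called higher (38.5%) and 4 lower (30.8%). Over all tested genes these shares were 29.3% and 28.5%. The median of the list was 0.35. Without heat replicate 1 the counts and median were 4, 4 and 0.14, while 3 were called higher without cold replicate 3. HY5, which opposes PIF4, fell to 9.83, 6.54 and 6.13 CPM in heat, against 13, 13.1 and 11.4 CPM in cold (-0.73), and COP1, the ligase that removes HY5 protein, fell too (-0.60). PHYB had a log2 fold change of -0.26.

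Auxin genes were higher on balance. Of 26 genes 21 could be tested, of which 13 were called higher and 3 lower, with a median of 0.38 (12 and 3 without heat replicate 1). YUC8, an auxin synthesis enzyme and target of PIF4, had 3.53, 3.04 and 3.95 CPM in heat, against 1.26, 1.82 and 1.7 CPM in cold (1.15, SE 0.27). TAA1, the enzyme of the step before it, went the opposite way, with 6.02, 6.15 and 8.44 CPM in heat, against 32.4, 26.8 and 31.6 CPM in cold (-2.15, SE 0.13). The 5 tested members of the SAUR19 subfamily, whose products promote cell expansion, rose by 1.32 to 2.21 on the log2 scale, but these near-identical neighbours were low. AT5G18030 (SAUR21) had 4.15, 4.08 and 3.2 CPM in heat, against 1.04, 1.12 and 1.06 CPM in cold. IAA19 and IAA29, auxin-response genes that PIF4 is known to raise, had log2 fold changes of -0.15 and -0.30 with adjusted p-values of 0.752 and 0.457, and IAA1 fell (-1.21). Of all 47 tested SAUR genes 19 were called higher and 5 lower (median 0.22; 18 and 6 of 49 without heat replicate 1), among them AT1G72430 with 137, 115 and 113 CPM in heat, against 18.7, 31.3 and 30.3 CPM in cold (2.2).

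Of 19 expansins and xyloglucan endotransglucosylases, which loosen cell walls, 6 were called higher (31.6%) and 4 lower (21.1%), with a median of 0.04 and the same counts without heat replicate 1, near the 29.3% and 28.5% of all genes. XTH24 had 1825, 1696 and 1547 CPM in heat, against 413, 691 and 708 CPM in cold (1.48, SE 0.20), XTR6 (XTH23) had 56.3, 30.1 and 20.7 CPM in heat, against 1.34, 4.89 and 4.75 CPM in cold (3.32, SE 0.55), and XTH9 and XTH18 rose by 1.2 and 1.59 on the log2 scale. Among expansins EXPA6 rose (0.61) and EXPA15 fell to 2.91, 4.28 and 4.08 CPM in heat, against 10.3, 9.36 and 11.4 CPM in cold (-1.48). The gibberellin-regulated GASA1 gave one of the largest rises in CPM, with 4481, 3198 and 2962 CPM in heat, against 635, 1064 and 902 CPM in cold (2.03, SE 0.19). Of 35 tested arabinogalactan protein genes, for glycoproteins of the cell surface, 15 were called higher and 6 lower (median 0.36; 17 and 2 of 38 without heat replicate 1), and AGP21, AGP7 and AGP12 each rose by at least 2.00 on the log2 scale. Of 94 tested pectin enzymes 25 were higher (26.6%) and 33 lower (35.1%), with a median of -0.11 (28 and 30 of 97 without heat replicate 1).

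Aquaporins, the channels that carry water across membranes, were mostly higher in heat. Of 26 tested 15 were called higher and 6 lower, with a median of 1.35 (16 and 6 of 27 without heat replicate 1), and the family summed to 8159 to 8427 CPM in heat, against 2224 to 2693 CPM in cold. The direction followed the subfamily. Of 13 plasma membrane intrinsic proteins 10 were called higher and none lower (median 1.47), and of 5 tonoplast intrinsic proteins 4 were called higher and none lower (1.39), also in DESeq2 and at an unadjusted p under 0.05 in edgeR. All 3 small and basic intrinsic proteins, which sit in the endoplasmic reticulum, were called lower (median -0.68), as were 3 of 5 NOD26-like proteins, with 1 higher (-0.57). The grouping by subfamily was made after the values were seen.

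PIP2A, a major water channel of the plasma membrane (chr3:19803473-19805730), had 1290, 1249 and 1248 CPM in heat, against 177, 186 and 201 CPM in cold (2.75, SE 0.088), and heat replicate 1 lay close to the other heat libraries. RD28 (PIP2;3), a near-identical neighbour of PIP2B, had 98.8, 61.8 and 54.2 CPM in heat, against 5.35, 5.59 and 5.75 CPM in cold (3.68, SE 0.31). GAMMA-TIP had 378, 317 and 287 CPM in heat, against 42.2, 69.2 and 55.2 CPM in cold (2.57, SE 0.17). SIP1;2 fell to 1.87, 2.2 and 2.65 CPM in heat, against 12.2, 8.94 and 11.5 CPM in cold (-2.30, SE 0.21). None of these 4 genes overlapped between heat and cold.

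**Figure D5:**
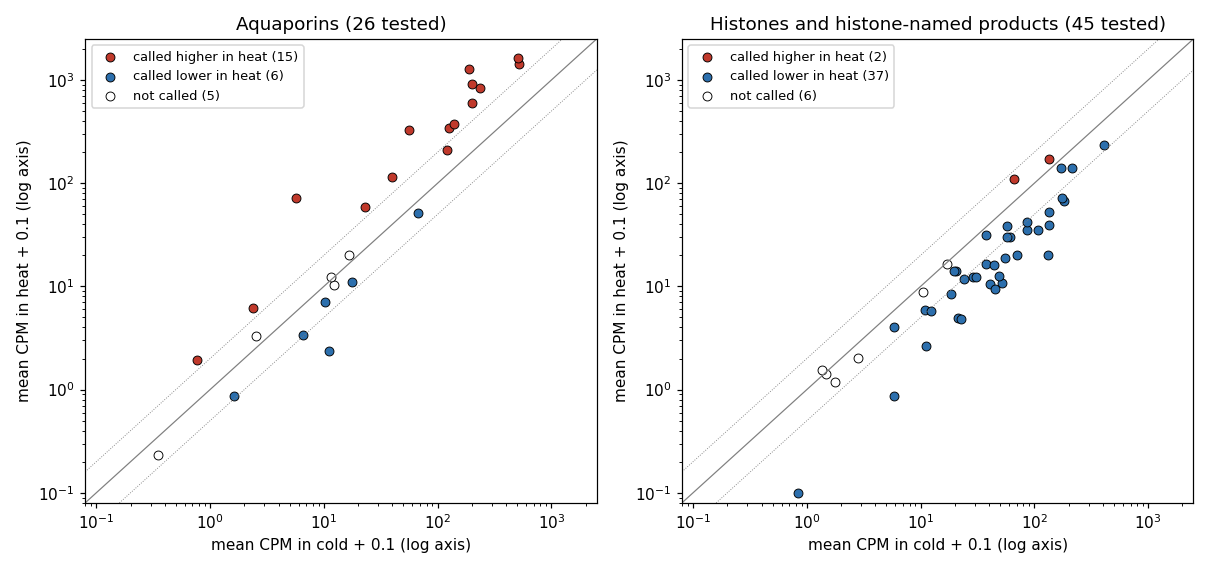
Each dot is a tested gene, with its mean CPM plus 0.1 in heat (vertical, log axis) against that in cold (horizontal, log axis), for aquaporins at the left and histones and histone-named products at the right, in red where called higher, blue where called lower and open where not called, with dotted lines at 2-fold. Of 26 aquaporins 15 were called higher and 6 lower, and of 45 histone-named genes 2 were called higher and 37 lower.

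Most histone genes fell. Of 45 tested genes with a histone in the product name 37 were called lower and 2 higher, with a median of -1.12, and 34 were lower without heat replicate 1. The sum was 1362 to 1651 CPM in heat, against 2794 to 2992 CPM in cold. The 5 of these that are enzymes acting on histones had 3 lower and 1 higher, and the other 40 had 34 lower and 1 higher (median -1.27). The H4 gene AT3G53730 had 14.9, 21.7 and 23.9 CPM in heat, against 132, 127 and 135 CPM in cold (-2.70, SE 0.15), and AT1G09200, an H3 gene, had 8.51, 11.5 and 12 CPM in heat, against 53.7, 50 and 51.9 CPM in cold (-2.28, SE 0.11). The exception was HTA9, an H2A.Z gene, with 172, 178 and 171 CPM in heat, against 126, 130 and 145 CPM in cold (0.37, SE 0.078). HTA9 overlaps a gene on the opposite strand, so this small rise is uncertain. H2A.Z is the variant whose removal from promoters has been linked to warmth. The other H2A.Z genes HTA8 and HTA11 were called lower, at -0.54 and -1.05, HTA8 not without cold replicate 1, cold replicate 2 or heat replicate 1 (adjusted p = 0.0797, 0.0754 and 0.111, edgeR). Histone genes of one class have nearly the same sequence, so values of single copies are uncertain.

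Counts for cell cycle genes rested on single libraries. Of 23 genes for mitosis and DNA replication 11 were called lower and 2 higher, with a median of -0.34, but 5 (21.7%) were lower without heat replicate 1 (median -0.24), 6 without cold replicate 3 and 7 without cold replicate 2, against 28.5% of all genes called lower with all libraries. CYCB1;1, a cyclin of G2 and mitosis, had 1.94, 3.11 and 2.86 CPM in heat, against 6.99, 3.77 and 4.99 CPM in cold (-1.03, SE 0.25), and PCNA1, the clamp of DNA replication, fell by 0.72 on the log2 scale. CYCB1;4 was lower at -0.65 but was not called without heat replicate 1 (adjusted p = 0.0534, edgeR). CYCD3;1, which drives entry into division, had 33.4, 31.2 and 30.2 CPM in heat, against 19, 23 and 19.5 CPM in cold (0.62, SE 0.11), and CYCD3;3 rose by 0.42. Of 27 tested kinesins 12 were lower and 3 higher (median -0.24; 9 and 3 without heat replicate 1).

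Of 16 ribosome biogenesis genes 10 were called higher and 1 lower, with a median of 0.42, and 6 and 2 without heat replicate 1 (0.23), while 6 were also called higher without cold replicate 1 or without cold replicate 3. RID2, a methyltransferase needed for rRNA maturation, had 19.4, 14.5 and 11.4 CPM in heat, against 6.02, 8.24 and 6.22 CPM in cold (1.18, SE 0.19), and MTR4, a helicase of the nuclear exosome, had 67.7, 55.6 and 55.2 CPM in heat, against 33.1, 36 and 34.3 CPM in cold (0.79, SE 0.085). NUC-L1, a nucleolin, was the member called lower (-0.28), with overlapping groups and no call without cold replicate 2, heat replicate 2 or heat replicate 3 (adjusted p = 0.072, 0.117 and 0.107, edgeR). Of 310 tested ribosomal protein genes 124 were higher and 32 lower (median 0.17; 99 and 43 without heat replicate 1), and of 54 WD40, DEAD-box or nucleolar proteins 26 were higher and 11 lower (0.25; 21 and 11 of 55 without heat replicate 1). The site II string TGGGCC or TGGGCT was found in 13 of the 16 biogenesis promoters and 64.2% of ribosomal protein promoters, against 25.9% of all tested genes, and in the 250 bases before the start alone in 10 of the 16 and 56.4%, against 22.8%. The telo-box AAACCCTAA was found in 7 of the 16 and 21.8% of ribosomal protein promoters, against 3.19% of all tested genes, but in the 250 bases before the start alone in 1 of the 16 and 8.14%, against 2.08%.

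SR proteins choose splice sites, and their own pre-mRNAs are spliced according to temperature. Of 20 tested 11 were called higher and 5 lower, with a median of 0.41 (10 and 5 without heat replicate 1). SR45a, a heat- and light-responsive splicing factor, had 153, 123 and 113 CPM in heat, against 11.5, 15.2 and 14.7 CPM in cold (3.24, SE 0.19). SR30 had 256, 239 and 240 CPM in heat, against 74.5, 62.3 and 75.1 CPM in cold (1.79, SE 0.094), and SCL33 had 63.5, 70 and 79.6 CPM in heat, against 23.4, 22.2 and 25.5 CPM in cold (1.57, SE 0.11). Within subfamilies the direction split. RS31, RS31a and RS40 had log2 fold changes of 0.78, 1.54 and -1.03, all called, and RSZ21 and RSZ22a had 0.92 and -0.73. RS40 had 50.5, 58.3 and 55.7 CPM in heat, against 114, 109 and 113 CPM in cold. Of 274 tested pentatricopeptide proteins, which edit and process organelle RNA, 123 were higher and 31 lower (median 0.35; 106 and 26 of 276 without heat replicate 1), and MEF8S had 28.9, 23.2 and 24.2 CPM in heat, against 4.16, 4.19 and 4.46 CPM in cold (2.56), although it overlaps a gene on the other strand.

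Light-harvesting antenna genes shifted by small amounts. Of 18 tested 13 were called higher and 2 lower, with a median of 0.30 and the same counts without heat replicate 1, and the sum was 65804 to 74331 CPM in heat, against 57467 to 59002 CPM in cold. LHCA1 had 9135, 9848 and 10298 CPM in heat, against 6671, 5919 and 6196 CPM in cold (0.64, SE 0.078). The closely related LHCB1 genes moved in opposite directions. LHB1B2 (LHCB1.5) had 8209, 9186 and 9182 CPM in heat, against 4893, 4941 and 5318 CPM in cold (0.81), and CAB1 (LHCB1.3) had 6222, 6855 and 6807 CPM in heat, against 9098, 9932 and 9918 CPM in cold (-0.54), with the reservation that reads may be shared between these copies. LHCB2.3 fell to 133, 182 and 198 CPM in heat, against 864, 516 and 593 CPM in cold (-1.94, SE 0.23), while LHCB2.2 rose by 0.63 on the log2 scale.

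The same opposition appeared among the small subunits of Rubisco, with the same reservation that reads may be shared between copies. RBCS1A had 5042, 5373 and 5637 CPM in heat, against 9288, 9758 and 8617 CPM in cold (-0.79, SE 0.089), the largest fall in CPM among nuclear protein-coding genes whose groups did not overlap, whereas RBCS2B and RBCS3B rose (0.49 and 0.52) and RBCS1B had a log2 fold change of -0.16 (adjusted p = 0.115, edgeR, and 0.0434 without heat replicate 3). ELIP2, which protects the antenna against excess light and is raised by cold in light, had 0.346, 0.259 and 0.204 CPM in heat, against 12.8, 8.38 and 7.74 CPM in cold (-5.12, SE 0.65). Of 51 tested photosystem proteins 23 were higher and 10 lower (median 0.13; 24 and 10 without heat replicate 1). DRT112, a plastocyanin, had 4388, 3987 and 3934 CPM in heat, against 2063, 1961 and 2041 CPM in cold (1.02), and SHM1, an enzyme of photorespiration, fell by 0.42 on the log2 scale.

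Salicylic acid defence genes were lower nearly throughout. Of 22 genes 16 could be tested, of which 14 were called lower and 1 higher, with a median of -0.95 and the same counts without heat replicate 1. SARD1, a factor that switches on salicylic acid synthesis, had 0.415, 0.324 and 0.136 CPM in heat, against 3.34, 2.93 and 2.76 CPM in cold (-3.33, SE 0.34), and its partner CBP60G fell by 1.4 on the log2 scale. PBS3, which conjugates the salicylic acid precursor, had at most 3 counts in any heat library, against 0.52, 1.4 and 1.41 CPM in cold, and was at least 5.34-fold lower in heat. WRKY18 had 7.75, 5.83 and 5.85 CPM in heat, against 33.7, 33.5 and 33.5 CPM in cold (-2.37, SE 0.12).

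Genes at several steps of the route were lower. EDS1, PAD4 and SAG101, which relay signals of resistance proteins, had log2 fold changes of -0.81, -1.08 and -0.69, the synthase gene EDS16 (ICS1) of -0.54 and the salicylic acid receptor NPR1 of -0.53, all called. The marker genes PR1 and PR5 were lower at -2.63 and -2.29, from low levels. PR1 had 0.0692, 0.259 and 0.204 CPM in heat, against 0.892, 1.68 and 1.11 CPM in cold. The gene called higher was DMR6, an enzyme that inactivates salicylic acid, with 51.8, 39.5 and 37.9 CPM in heat, against 7.43, 8.38 and 9.27 CPM in cold (2.36, SE 0.15). WRKY70 had a log2 fold change of 0.10 (adjusted p = 0.771, edgeR). Among all 47 tested WRKY factors 27 were lower and 5 higher (median -0.50; 23 and 5 without heat replicate 1). Their binding string, the W-box TTGACC or TTGACT, was found in 38.7% of promoters of genes more than 2-fold lower, 28.9% of those more than 2-fold higher and 32.4% of all tested genes. In the 250 bases before the start alone, the shares of genes more than 2-fold lower and higher were 34.9% and 25.5%. These cannot be set against the 32.4%, which is for the longer window.

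Flavonoid and anthocyanin genes were mostly lower. Of 26 phenylpropanoid, flavonoid and anthocyanin genes 24 could be tested, of which 16 were called lower and 2 higher, with a median of -0.77 (17, 1 and -0.99 without heat replicate 1). F3H, an early enzyme of the flavonoid route, had 2.49, 3.11 and 2.18 CPM in heat, against 17, 11.6 and 13.4 CPM in cold (-2.46, SE 0.21), and DFR, the branch to anthocyanin, had 0, 0.324 and 0.0681 CPM in heat, against 3.64, 2.65 and 1.53 CPM in cold (-4.16, SE 0.59). GSTF12, which carries anthocyanin to the vacuole, and FLS1, a flavonol synthase, were lower at -2.44 and -2.19. Upstream, PAL1 fell to 14.7, 19 and 15 CPM in heat, against 40.7, 38.4 and 35.3 CPM in cold (-1.22), while C4H rose (0.38). The regulator PAP1 had 0.346, 0.713 and 0.545 CPM in heat, against 1.19, 0.14 and 0.763 CPM in cold (-0.54, adjusted p = 0.323).

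Glucosinolate synthesis, the source of the mustard oils, had the lowest median of all lists. Of 21 genes 19 could be tested, of which 15 were called lower and 2 higher, with a median of -1.19 (15 and 1 without heat replicate 1), and the list summed to 287 to 293 CPM in heat, against 576 to 722 CPM in cold. In the branch from tryptophan, CYP83B1 had 28.4, 28 and 28.4 CPM in heat, against 147, 107 and 119 CPM in cold (-2.14, SE 0.14), and CYP79B2 had 6.23, 11.2 and 9.73 CPM in heat, against 34, 28.8 and 30.4 CPM in cold (-1.78, SE 0.21). In the branch from methionine, MAM1 had 24, 19 and 23 CPM in heat, against 49.8, 120 and 66.6 CPM in cold (-1.83, SE 0.33), and CYP79F1 had 5.05, 5.05 and 4.49 CPM in heat, against 8.55, 29.6 and 17 CPM in cold (-1.85, SE 0.41). Cold replicate 2, the library with the fewest counts, was the highest for the genes of the methionine branch named here, and the groups did not overlap. The regulators MYB28 and MYB51 were lower (-1.04 and -1.44) and MYB34 higher (0.47).

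The genes with the largest changes outside these lists were chosen by size among those with at least 5 CPM in the higher group and no overlap. AT5G25450, annotated as a subunit of a respiratory ubiquinol oxidase complex, had 37, 18 and 17 CPM in heat, against 0.149, 0.14 and 0.293 CPM in cold (6.77, SE 0.67). AT3G59930, a defensin-like protein, had 32.3, 19.6 and 19.4 CPM in heat, against 0.149, 0.559 and 0.235 CPM in cold (6.43, SE 0.42). TIN1, a gene induced by blocked glycosylation in the endoplasmic reticulum, had 99.7, 49.8 and 42.1 CPM in heat, against 0.52, 1.26 and 0.763 CPM in cold (6.35, SE 0.59). The remaining 9 of the 12 largest rises were Hop3 and 8 small heat shock proteins. CP5, whose product belongs to the lipid-binding START domain family, had one of the largest rises in CPM, with 3265, 3411 and 3432 CPM in heat, against 847, 860 and 985 CPM in cold (1.91).

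Among the 12 largest falls, AT2G47880, a glutaredoxin, had at most 3 counts in any heat library, against 14.3, 5.17 and 10.2 CPM in cold, and was at least 47.7-fold lower in heat. PP2-A5, a phloem lectin, had 0.138, 0.13 and 0.408 CPM in heat, against 26.7, 21 and 24.4 CPM in cold (-6.70, SE 0.29). AT1G30280, a J-domain protein, had 2.15, 1.94 and 1.97 CPM in heat, against 68.6, 81.2 and 72.9 CPM in cold (-5.19, SE 0.12). GSTU24, a glutathione transferase, fell by 4.98 on the log2 scale, and AT2G04050, a MATE efflux carrier, was at least 29-fold lower. AT1G27020, AT4G08555, AT3G13672, AT5G44590 and AT1G15125 fell by 5.26, 4.59, 4.43, 4.37 and 4.25 on the log2 scale. In CPM, GRP3S, a glycine-rich wall protein, followed RBCS1A, CAB1 and AT1G54410, with 594, 561 and 501 CPM in heat, against 1669, 1535 and 1687 CPM in cold (-1.56).

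The bdr1,2,3 mutant lacks 3 BORDER proteins, which limit interference between neighbouring genes. Its response to the same move differed from that of the wild type at 198 of the 19473 genes (1.02%) by the test of the interaction in edgeR (2526 at an unadjusted p under 0.05), and at 137 of the genes called in the wild type (1.22%). The count of 198 rested on single libraries, since it was 42 without wild-type cold replicate 3, 72 without heat replicate 2, 111 without cold replicate 1 and 354 without heat replicate 1.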

How the data were processed

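RNA was sequenced from 12-day-old wild-type and bdr1,2,3 seedlings in heat and cold, with 3 libraries a group taken from the sample titles. The authors made stranded mRNA libraries and deposited raw counts per gene, and the submitters' processing notes name STAR 2.5.2b, SAMtools 1.3.1, featureCounts, R 3.3.2, DESeq2 1.14.1 and the build TAIR10. The use of strand and the treatment of reads that match several genes are not given in the sources used here. The other deposited tables (normalized values, and the photomorphogenesis experiment) were not used here.

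Counts of 33602 genes in 12 libraries, all 4 groups together, were filtered with filterByExpr and scaled by TMM, and heat minus cold and its interaction with genotype were tested two-sided with edgeR's quasi-likelihood test (edgeR 4.0.16, limma 3.58.1, R 4.3.3), adjusted by the Benjamini-Hochberg method over the 19473 genes tested and called under 0.05. CPM used TMM-scaled library sizes. A group with at most 3 counts of a gene in every library was taken as at the floor. Folds against it set the mean of the other group against 3 counts in the floor group's smallest library (0.208 CPM in heat, 0.419 CPM in cold). They are given as lower bounds for that mean that cover counting error only, and single libraries can fall below them. In simulated data the test recovered 44.8%, 82.1% and 95.5% of genes changed 1.5-fold, 2-fold and 4-fold. The simulation changed only 67, 67 and 66 of 19473 genes at these folds, whereas 57.8% were called in the data. These rates therefore need not hold for the comparison made here. Alternatives were DESeq2 size factors, DESeq2 1.42.0, no filter, the 6 wild-type libraries alone, no organelle genes, a replicate block and each wild-type library left out.

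The gene lists, the product families and the libraries described were chosen with earlier results of these data known. Genes were named by a rule: among called nuclear protein-coding genes whose groups did not overlap and whose mean was at least 5 CPM in the higher group, the 12 largest rises and 12 largest falls on the log2 scale and the 5 largest each way in CPM, up to 4 called members of each list with the largest change, and paralogues of those. Other list members and the examples of families were chosen after their values were seen. Product families were found by words in the TAIR10.1 annotation, matched by locus to 32835 of 33323 nuclear genes, and promoters came from RefSeq's TAIR10.1 table (19364 of the tested genes).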

Additional observations from a re-analysis of the deposited data

Results flagged for a closer look

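The response to heat differed between the bdr1,2,3 mutant and the wild type at 198 genes (1.02% of those tested) by the test of the interaction (edgeR, adjusted over all tested genes). Of the genes given with values here, 10 were among them. Some of these, such as ARCK1, GSTU2 and AT1G27420, are given in this section only, so no rate can be read from that count. Interaction values are the log2 fold change of the mutant minus that of the wild type.

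The fall was larger in the mutant for FAD8, with log2 fold changes of -2.13 in the mutant and -1.32 in the wild type (interaction -0.81, adjusted p = 0.00504, edgeR), and for the floral integrator AGL20, at -3.08 in the mutant and -1.49 in the wild type (-1.59, 0.000225). Of 18 tested antenna genes 3 had a called interaction, and of 19 expansin and xyloglucan endotransglucosylase genes 1. LHCB2.2 had -0.11 in the mutant and 0.63 in the wild type (-0.75, adjusted p = 0.0031, edgeR), LHCB2.1 had -0.59 in the mutant and 0.27 in the wild type (-0.86, 0.00158), and EXPA6 had 0.14 in the mutant and 0.61 in the wild type (-0.48, 0.0317). LHCB2.1 and LHCB2.2 are near-identical, so reads may be shared between them.

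The largest interactions among genes followed up were in ARCK1, GSTU2, AT1G27420 and MYB29. ARCK1, a receptor-like kinase gene, had a fitted log2 fold change of -0.17 in the mutant and -4.88 in the wild type (4.70, adjusted p = 0.00827, edgeR), where it was at the floor in heat, so that the wild-type value depends on the prior count. GSTU2, a glutathione transferase, had 0.55 in the mutant and -1.77 in the wild type (2.32, 0.015), AT1G27420, a kelch repeat protein, had 0.58 in the mutant and 3.38 in the wild type (-2.80, 0.0266), and MYB29, a regulator of glucosinolate synthesis, had -1.24 in the mutant and 0.64 in the wild type (-1.88, 0.0102). WRKY33, a defence factor, had -0.69 in the mutant and -1.54 in the wild type (0.85, adjusted p = 0.0154, edgeR). The wild-type call of MYB29 was lost without cold replicate 1, cold replicate 3 or heat replicate 1 (adjusted p = 0.112, 0.0644 and 0.0899).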

How the results depend on the processing

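With all libraries 11249 genes were called, and the count stayed within 1.5 times of this under every alternative (10432 with DESeq2, 10794 with the 6 wild-type libraries alone, 11545 with a replicate block, 9915 to 10656 with a library left out). Of 672 counts over lists and families under alternatives, 663 were within 1.5 times. The exceptions were phytochrome-interacting factors called higher (3 without cold replicate 3, range 3 to 5 with a library left out), mitosis genes called lower (5 to 10), ribosome biogenesis genes called higher (6 to 11), and cytokinin regulators called lower, 2 with all libraries, 4 with the 6 wild-type libraries alone and 4 with a replicate block. The interaction gave 198 genes, 42 to 354 with a library left out, 177 with DESeq2 size factors, 287 with DESeq2 and 286 with a replicate block. The cause of these shifts was not tested. Same-numbered heat and cold libraries did not deviate together (correlations -0.124, -0.0591 and 0.0169), and differently numbered ones gave -0.132 to 0.145. With 3 libraries a group these values cannot exclude a batch shared by same-numbered libraries. The main fit did not pair them, and the replicate block was an alternative. No direction of a named gene was reversed. HSP21 was called by DESeq2 (adjusted p = 6.01e-08) and with a replicate block (3.5e-10), but not by edgeR without it (0.0654). Counts limit the low genes most: cold replicate 2 had the fewest (6823975), where 3 counts are 0.419 CPM.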

Other observations

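Hormone genes outside the salicylic acid and auxin routes were called in both directions. Of 26 abscisic acid genes 24 could be tested, of which 8 were called higher (33.3%) and 8 lower (33.3%). Over all tested genes these shares were 29.3% and 28.5%. The median of the list was -0.01, against 0.00 over all tested genes. The receptor gene PYL6 had 3.95, 4.53 and 5.92 CPM in heat, against 38.1, 36.7 and 34.8 CPM in cold (log2 fold change -2.92, SE 0.14), and the degradation gene CYP707A3 fell by 1.97 on the log2 scale, while the phosphatase HAB1, which blocks signalling, had 75.4, 52.4 and 51.6 CPM in heat, against 16.3, 14.1 and 16 CPM in cold (1.94, SE 0.13). The transcription factors ABF1 and ABF3 moved apart. ABF1 had 45.2, 51.4 and 50.1 CPM in heat, against 148, 136 and 137 CPM in cold (-1.52), and ABF3 had 78.8, 72.3 and 84.3 CPM in heat, against 34.3, 30.7 and 35.5 CPM in cold (1.22). The heat and cold libraries of these genes did not overlap. Without heat replicate 1 the list had 8 higher and 7 lower.

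Of 17 tested gibberellin genes 5 were higher (29.4%) and 5 lower (29.4%), near the 29.3% and 28.5% of all tested genes (median -0.14). The inactivating oxidases GA2OX4 and GA2OX8 were at 1.65 and -1.78. Of 12 brassinosteroid genes 4 were higher and 2 lower (0.05), with CPD, a synthesis enzyme, at 0.66 and BR6OX1 at -1.90. Of 18 tested jasmonate genes 8 were lower and 2 higher (-0.35), and the repressor gene JAZ1 had 10.7, 5.96 and 5.45 CPM in heat, against 31.2, 27.7 and 26.4 CPM in cold (-1.95, SE 0.20). Of 11 tested ethylene genes 5 were lower and 1 higher (-0.34), and ACO1, an oxidase of ethylene synthesis, fell by 2.56 on the log2 scale. Of 7 tested cytokinin response regulators 2 were lower (RR5 and ARR7, at -0.88 and -1.48) and 1 higher (RR3, at 0.35), the last lost under 6 alternatives, with adjusted p-values of 0.0527 to 0.132. Of 9 antioxidant enzymes 4 were higher and 3 lower (0.06). CAT2, a leaf catalase, had 1277, 1162 and 1196 CPM in heat, against 498, 580 and 580 CPM in cold (1.13, SE 0.091), and among superoxide dismutases the iron enzyme FSD1 was higher (0.95) and the copper enzyme CSD2 lower (-0.77). Without heat replicate 1 the counts of higher and lower genes were 5 and 5 for gibberellin, 5 and 2 for brassinosteroids, 1 and 8 for jasmonate, 1 and 6 for ethylene and 4 and 3 for antioxidant enzymes.

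Among detoxification families, glutathione transferases, UDP-glycosyltransferases and peroxidases had 56.5%, 52.9% and 41.7% of genes called lower, against 28.5% of all tested genes. Of 46 tested glutathione transferases 26 were lower and 7 higher (median -0.52), with GSTF7 at 1.94, 3.69 and 3.54 CPM in heat, against 38.6, 26.3 and 36.4 CPM in cold (-3.48, SE 0.20), and its near copy GSTF6 at -3.12. GSTU5 went the other way, with 340, 287 and 276 CPM in heat, against 62.1, 56 and 55.9 CPM in cold (2.37, SE 0.10). Of 102 tested UDP-glycosyltransferases 54 were lower and 10 higher (-0.44), of 48 peroxidases 20 and 11 (-0.34, or -0.42 with genes at the floor set to their bound). Without heat replicate 1 these counts were 27 and 6, 49 and 10, and 17 and 10. Of 143 cytochromes P450 43 were lower (30.1%) and 34 higher (23.8%), near the 28.5% and 29.3% of all tested genes (42 and 33 of 146 without heat replicate 1), and among them CYP71B13 had 21.9, 17.2 and 19.1 CPM in heat, against 1.04, 0.699 and 0.88 CPM in cold (4.41, SE 0.24).

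Apart from the WRKY factors (median -0.50), medians of the signalling and transcription factor families lay between -0.23 and 0.17. Of all tested genes 28.5% were called lower and 29.3% higher. These shares were 32.8% and 26.7% for resistance proteins and 32.2% and 15.3% for NAC factors. They were 35.3% and 27.5% for AP2/ERF factors and 25.3% and 23% for bHLH factors. Of 220 tested receptor-like kinases 82 were lower and 52 higher (-0.14), with CRK28 at 1.25, 1.55 and 1.77 CPM in heat, against 17.5, 19.7 and 20.2 CPM in cold (-3.64, SE 0.19), of 116 resistance proteins 38 and 31 (-0.16), and of 103 calcium-binding proteins 38 and 22 (-0.15). Of 59 NAC factors 19 were lower and 9 higher (-0.23), of 51 AP2/ERF factors 18 and 14 (-0.10), and of 87 bHLH factors 22 and 20 (0.01), whereas of 107 MYB factors 37 were higher and 20 lower (0.10) and of 160 F-box proteins 57 and 21 (0.17). Lipid transfer proteins (16 higher and 15 lower of 59, median 0.02), aminoacyl-tRNA synthetases (12 and 17 of 52, 0.04) and proteasome proteins (10 and 8 of 42, -0.01) had medians near that of all genes. Without heat replicate 1 the NAC factors had 16 lower and 11 higher, the F-box proteins 17 lower and 55 higher and the proteasome proteins 12 lower and 10 higher.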
